A study of Komagataella phaffii with 32 samples.

Results

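The 42 genes described here are the peroxisome and methanol utilisation genes of the methylotrophic yeast Komagataella phaffii, out of 5040 genes with a deposited expression value. A gene entered the group if its name begins with PEX, AOX, DAS, FLD, FDH, PMP or CTA followed by a digit, or if its description mentions peroxisomes, and names beginning ATG, CIT, MDH, MLS or ICL were left out. No measured value was used in that choice. The name brought in 26 genes and the description 28, with 12 chosen by both. The study measured mRNA by sequencing in WT X-33 (12 libraries), in the isogenic derivative PJA-001 with a mutated CRZ1 gene (crz1, 12 libraries) and in PJA-007 with a mutated RIM101 gene (rim101, 8 libraries). Crz1 is the transcription factor that calcineurin activates in yeasts, and Rim101 is a zinc-finger factor of the alkaline pH pathway. Cells of every group were grown at 28 °C in yeast extract and peptone with 20 g/L glycerol, from an OD600 of 0.2 to about 0.6, then spun down and resuspended in that medium with 50 mM TAPS buffer. The time 0 libraries (T0) came from cells taken at once in medium of pH 5.5, and the libraries of 15, 30 and 60 min (T15, T30, T60) from cells in medium of pH 8.0. Each WT and crz1 group had 3 libraries and each rim101 group had 2. No later library was kept at pH 5.5, so time, handling and pH cannot be told apart in a comparison with T0. The sample labels name X-33 as the parent and the series text names GS115. Each mutant is a single named strain, and the labels do not say whether replicates were separate cultures, so the p-values measure the spread between these libraries only.

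Peroxisomes are membrane-bound organelles that import folded enzymes from the cytosol with the help of peroxins, the proteins named PEX. A cytosolic receptor binds the enzyme, docks on the membrane, releases its cargo inside and is then ubiquitinated and pulled out again. In this yeast the organelle is known for methanol growth: alcohol oxidase (AOX) turns methanol into formaldehyde and hydrogen peroxide, catalase (CTA) breaks down the peroxide, and dihydroxyacetone synthase (DAS) fixes formaldehyde. Peroxisomes also carry out beta-oxidation of fatty acids. The main alcohol oxidase gene, AOX1, is known to be off on glycerol, which was the carbon source of every library here.

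Values are RPKM (read counts scaled by the length of the gene and the size of the library), which allow levels of different genes to be compared. Changes were tested with limma on log2(RPKM + 1) over 4226 genes with a mean of at least 1 RPKM, with all 12 groups in 1 fit and Benjamini-Hochberg adjustment over all genes of a comparison. A gene is said to have risen or fallen when its adjusted p was under 0.05. Of the 42 members, 34 passed that filter and 8 did not, among them AOX1, DAS2, PEX6, PEX7, PEX29, PIM1-2 and PAS_chr3_0874. In 30 libraries low values were whole multiples of 1 read, which gave depths of 4.95 to 16.5 M reads (median 7.70 M). The RIM101 transcript ranged from 20.5 to 151 RPKM in the 12 WT libraries and from 24.3 to 42.1 RPKM in the 8 rim101 libraries, with medians of 122 and 28.5 RPKM. CRZ1 mRNA was not lower in the crz1 strain, where it ranged from 21.6 to 54.6 RPKM, against 16.6 to 34.3 RPKM in WT. The median over tested genes lay between 46.6 and 56.6 RPKM in 9 libraries and between 21.01 and 35.4 RPKM in the remaining 23. In WT the 9 were replicate 1 at 30 min and replicates 1 and 2 at 60 min; in crz1, replicate 1 at every later time; in rim101, replicate 2 at 15 min and both at 30 min. None was a T0 library.

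In WT at T0, SOU1-1 (373 ± 46.9 RPKM, SD, n = 3), ARY100 (299 ± 39.3 RPKM, n = 3) and PMP3-2 (162 ± 41.7 RPKM, n = 3) were the 3 members above 100 RPKM. A further 16 lay between 10 and 100 RPKM, 12 between 1 and 10 RPKM and 11 under 1 RPKM, of which 6 were listed at 0 in all 3 libraries. Over the 32 libraries, 22 members were listed at 0 at least once and 20 never. An exact 0 in these files need not be an absent transcript, since 837 to 1423 genes of each library were listed at 0. In these bulk libraries fewer expressing cells and less RNA per cell cannot be told apart.

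**Figure D1:**
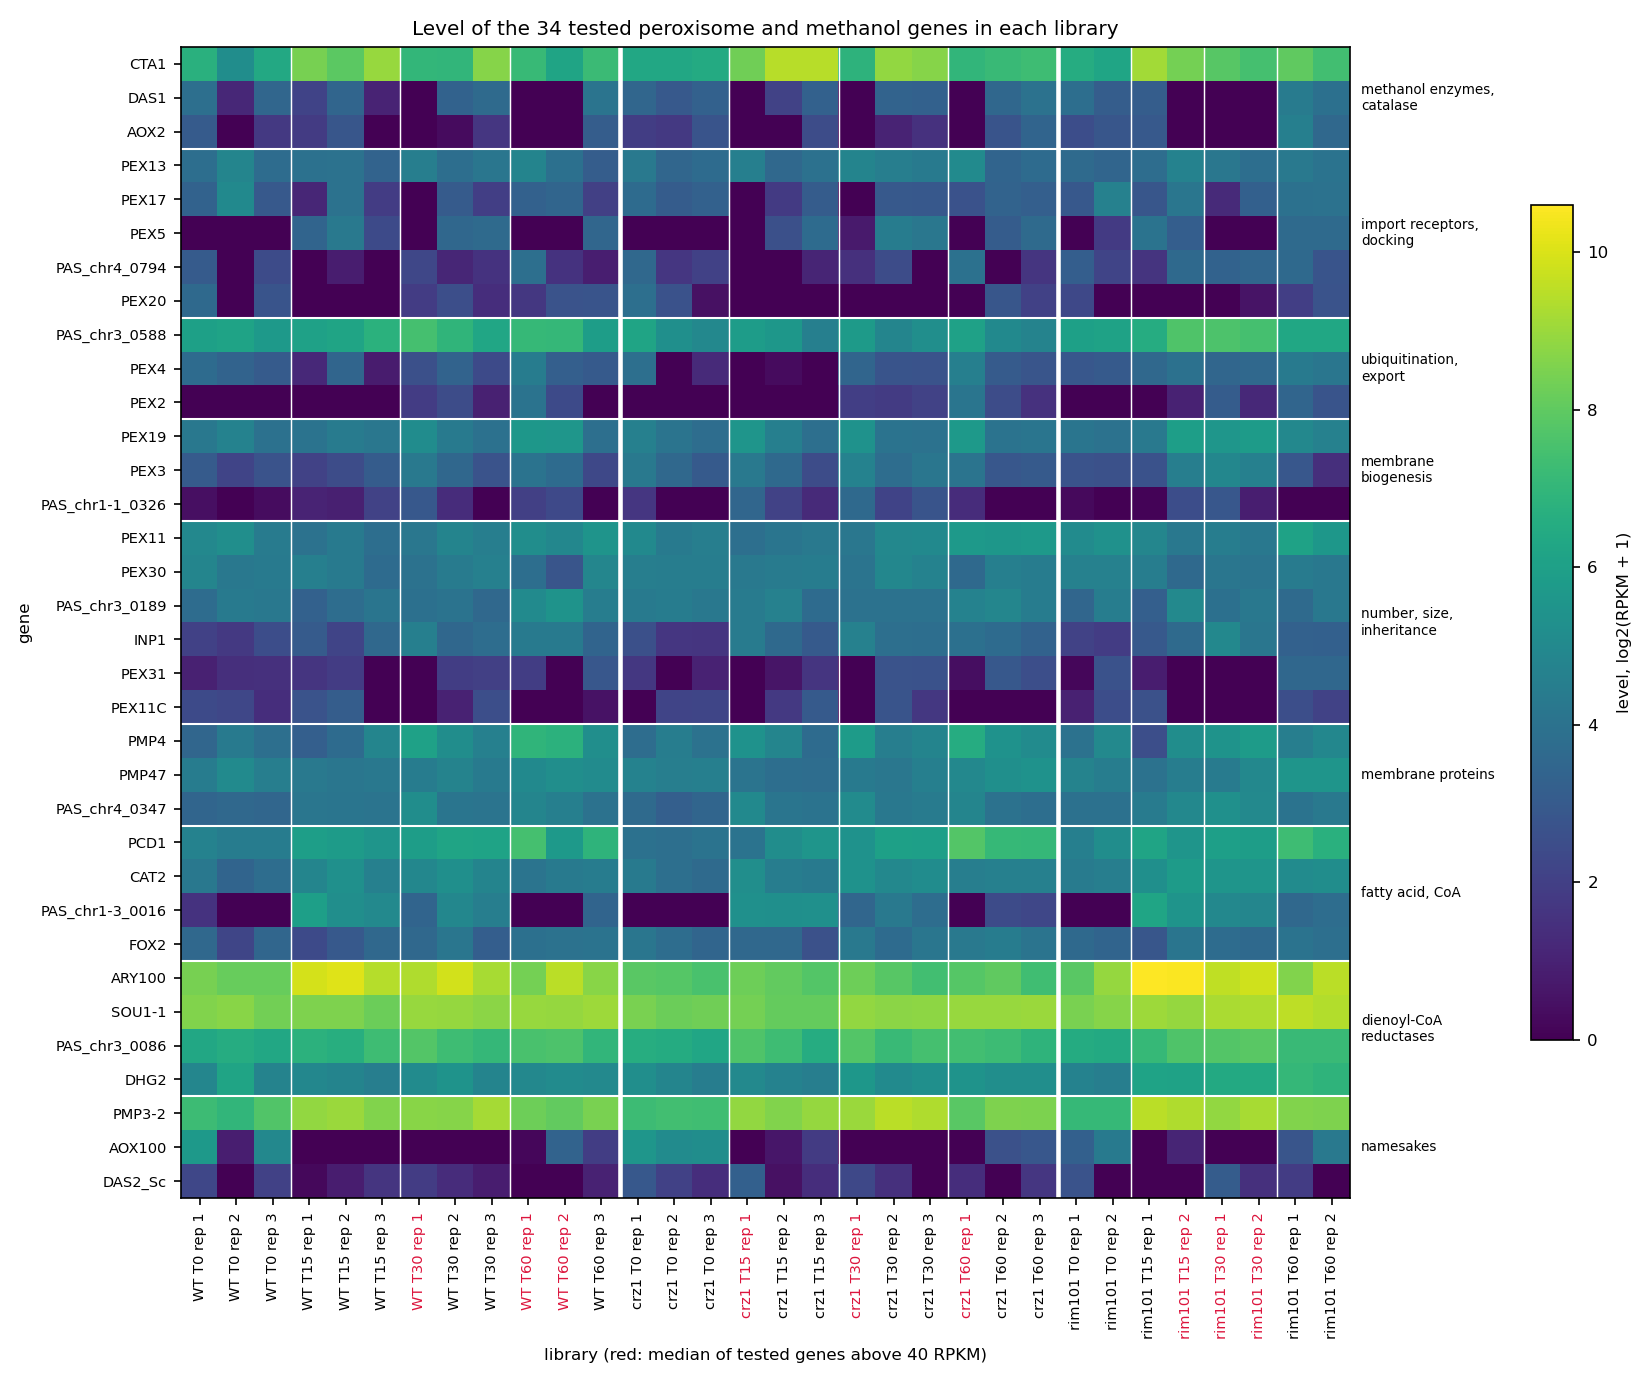
RPKM of the 34 members that passed the filter (rows, grouped by role) in the 32 libraries (columns) on a log2(RPKM + 1) colour scale. Library names in red have a median over tested genes above 40 RPKM. DAS1 and AOX2 are at 0 in every library named in red, and CTA1, PAS_chr1-3_0016 and ARY100 are brighter at 15 min than at T0, the last in WT and rim101.

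Against T0, 7 members rose and 2 fell in WT at 15 min (26.5% of the 34 tested), beside 18.6% of all genes called. At 30 min 10 rose and 1 fell (32.4%, beside 28.2% of all genes), and at 60 min 8 rose and none fell (23.5%, beside 31.5%); 12 members had an unadjusted p under 0.05 there. The members' median log2 change in WT was -0.09, 0.27 and 0.55 at the 3 times, where that of all genes was 0.17, 0.62 and 0.65. In crz1, 6, 10 and 6 members rose and 3, 2 and 1 fell, beside 22.9%, 22.1% and 17.7% of all genes called. In rim101, 6, 11 and 6 members rose and 0, 1 and 0 fell, beside 8.16%, 28.2% and 3.86% of all genes called. Over these 9 comparisons 21 members were called at least once (61.8% of the 34) and 13 never, where 55.8% of all genes were called at least once. At some time in each strain 10 members rose (29.4%), as did 12% of all genes. Leaving out 1 library moved 4 of these counts by over 1.5 times: from 8 to 5 in WT at 60 min without T0 replicate 3, from 9 to 5 in crz1 at 15 min without T15 replicate 2, from 12 to between 5 and 7 in rim101 at 30 min without any of its 4 libraries, and from 6 to 3 in rim101 at 60 min without T0 replicate 1 or T60 replicate 1. The 3 times of a strain share its T0 libraries and are given side by side for that reason. Of all genes, 566 rose and 219 fell in WT at 15 min, 1020 and 172 at 30 min, and 1136 and 195 at 60 min. With median-ratio scaling in place of the deposited RPKM these became 591 and 383, 575 and 362, and 557 and 466, the median change of all genes at 30 min moved from 0.62 to 0.14, and the members' counts in WT were 7 up and 1 down, 3 up and 1 down, and 5 up and 1 down. With quantile normalization the members' counts in WT were 5 up and 2 down, 4 up and 3 down, and 2 up and 3 down.

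**Figure D2:**
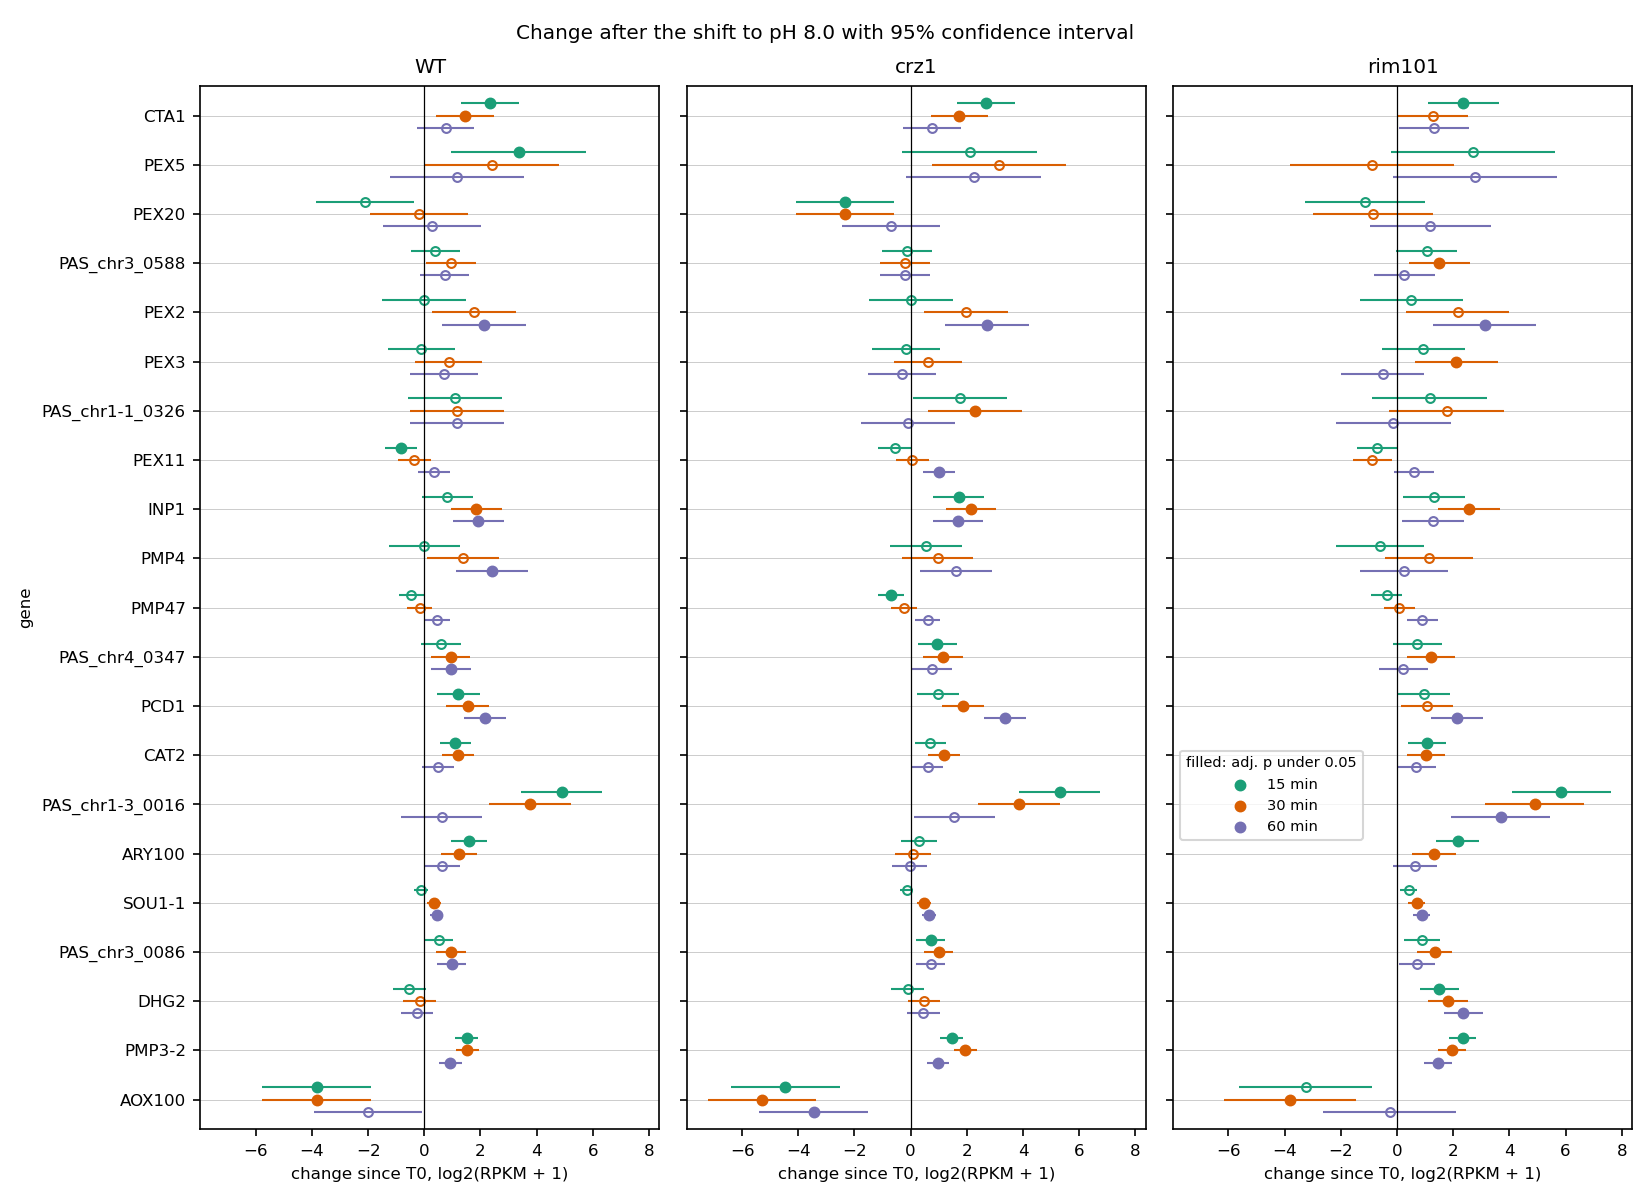
Change of the 21 members called at least once, as the log2(RPKM + 1) difference from T0 of the same strain with its 95% confidence interval, at 15, 30 and 60 min in WT, crz1 and rim101. Filled points had an adjusted p under 0.05. For genes listed at 0 in a group (PEX5, PEX2, PEX20, PAS_chr1-3_0016, AOX100) the size depends on the pseudocount. ARY100 has no filled point in crz1, and DHG2 has filled points in rim101 alone.

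Of the tested methanol enzymes and catalase, only the catalase CTA1 rose. CTA1 (PAS_chr2-2_0131, chromosome 2, 2139070 to 2140602 in the coordinates of the deposited tables) encodes the peroxisomal enzyme that breaks down hydrogen peroxide. In WT it stood at 104, 36.1 and 82.1 RPKM at T0, at 347, 240 and 502 RPKM at 15 min, at 127, 124 and 411 RPKM at 30 min, and at 139, 73.0 and 149 RPKM at 60 min. Every WT library of 15 and 30 min was above the T0 libraries, whereas the groups at 60 min and T0 overlapped. The log2 change in WT was 2.34 (SE 0.50, adjusted p = 0.00148) at 15 min and 1.45 (SE 0.50, adjusted p = 0.0314) at 30 min, and 0.76 at 60 min, where it did not pass (adjusted p = 0.226). In crz1 the libraries held 80.5, 80.9 and 87.5 RPKM at T0, 314, 702 and 708 RPKM at 15 min and 115, 464 and 405 RPKM at 30 min, with log2 changes of 2.68 (adjusted p = 0.000312) and 1.74 (adjusted p = 0.0131). In rim101 CTA1 went from 93.1 and 73.7 RPKM at T0 to 554 and 333 RPKM at 15 min, a log2 change of 2.36 (adjusted p = 0.0151). None of the T15 libraries overlapped the T0 libraries of its strain. The call at 30 min in WT was lost without WT T0 replicate 2 or WT T30 replicate 3 (highest adjusted p = 0.162), that at 30 min in crz1 without T30 replicate 2 or 3 (highest 0.0774), and that in rim101 without T0 replicate 1 or 2 or T15 replicate 1 (highest 0.0971); the WT and crz1 calls at 15 min held without any single library. With median-ratio scaling the log2 changes at 30 min were 0.93 in WT and 1.36 in crz1 and that in rim101 at 15 min was 2.01, none of which passed.

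Of the alcohol oxidases and dihydroxyacetone synthases, AOX2 and DAS1 gave no call, and AOX1 and DAS2 did not pass the filter and were not tested. AOX1 (PAS_chr4_0821), the main alcohol oxidase on methanol, was listed at 0 in 30 of the 32 libraries, and the exceptions were the rim101 T60 libraries with 1.09 and 0.193 RPKM. DAS2 was listed at 0 in 26 libraries. DAS1 in WT stood at 13.7, 1.28 and 10.2 RPKM at T0 and at 0, 0 and 15.7 RPKM at 60 min, so the groups overlapped. AOX2 (PAS_chr4_0152), the minor alcohol oxidase, stood at 7.18, 0 and 2.42 RPKM in WT at T0 and reached its top values of 22.8 and 11 RPKM in rim101 at 60 min. DAS1 and DAS2 are neighbours of equal length, with 2488 bases between them, and AOX1 and AOX2 are also close paralogs; no source used here says how the authors counted reads that map to both copies, so the split within each pair is uncertain. DAS1 was listed at 0 in all 9 libraries with a median above 40 RPKM and lay between 1.10 and 20.4 RPKM in the other 23. AOX2, DAS2, PEX6, PEX7, PEX11C, PIM1-2, PAS_chr3_0874 and AOX1 were at 0 in the same 9 libraries, and their level was also 0 in some of the 23. The part of this difference between libraries in the time courses of these genes was not tested.

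**Figure D3:**
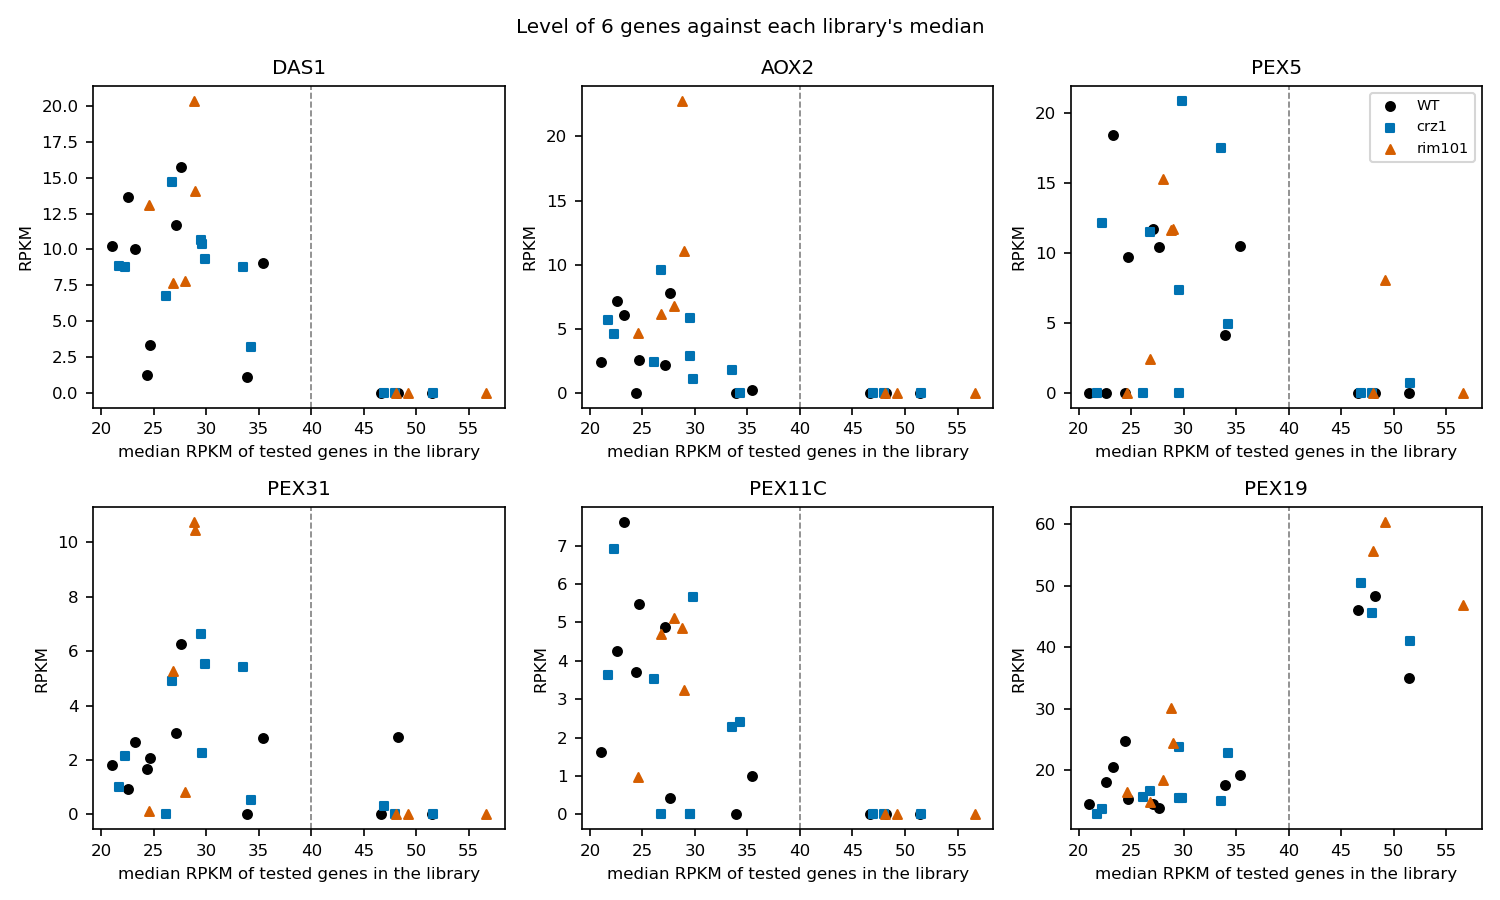
RPKM of DAS1, AOX2, PEX5, PEX31, PEX11C and PEX19 in each library against the median RPKM over tested genes in that library, with the dashed line at 40 RPKM. DAS1, AOX2 and PEX11C are at 0 in all 9 libraries right of the line, PEX5 and PEX31 in 7 of them, and PEX19 is higher there (35.0 to 60.3 RPKM) than to the left (12.8 to 30.2 RPKM).

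Among the receptors and docking proteins, PEX5 (PAS_chr2-2_0186), the receptor for the C-terminal peroxisomal signal, passed once. It was listed at 0 in all 3 WT and all 3 crz1 libraries at T0. In WT it stood at 9.70, 18.5 and 4.15 RPKM at 15 min (adjusted p = 0.0450), at 0, 10.6 and 11.8 RPKM at 30 min and at 0, 0 and 10.4 RPKM at 60 min. In crz1 the values were 0, 4.94 and 12.2 RPKM at 15 min, 0.700, 20.9 and 17.5 RPKM at 30 min and 0, 7.39 and 11.5 RPKM at 60 min, none of which passed. The WT groups at T0 and 15 min did not overlap, and every later 0 in WT and crz1 was in a library with a median above 40 RPKM, of which 7 of 9 listed PEX5 at 0. Leaving out any 1 of the 6 WT libraries of T0 and T15 lost the call (highest adjusted p = 0.142), whereas without the 9 libraries it had an adjusted p of 0.00019. PEX20 (PAS_chr2-1_0458), the co-receptor of PEX7 for the N-terminal signal, fell in crz1 from 13.8, 5.34 and 0.375 RPKM at T0 to 0 in all 3 libraries at 15 min (adjusted p = 0.0481) and at 30 min (adjusted p = 0.0497). In WT it was likewise listed at 0 in all 3 T15 libraries, where T0 held 11.4, 0 and 5.69 RPKM and the change did not pass. Both crz1 calls were lost in the fit with the replicate number as a block (adjusted p = 0.0516 and 0.0524), without the 9 libraries (adjusted p = 0.121 and 0.130) and without any single library of the groups compared other than T0 replicate 3 (highest 0.272). The docking proteins PEX13, PEX17 and PAS_chr4_0794, described as PEX14, did not pass in any strain.

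Of the ubiquitination and export genes, PEX2 (PAS_chr3_0043) encodes a RING ubiquitin ligase that marks the receptor for export. It was listed at 0 in all 8 T0 libraries. At 60 min it stood at 15.2, 4.28 and 0 RPKM in WT (adjusted p = 0.0294), at 16.6, 4.51 and 1.89 RPKM in crz1 (adjusted p = 0.0108) and at 10.1 and 5.82 RPKM in rim101 (adjusted p = 0.0483). Every mutant library of 60 min was above T0, and 1 of the 3 WT libraries was not. The WT values of 15.2 and 4.28 RPKM and the crz1 value of 16.6 RPKM came from libraries with a median above 40 RPKM. PEX2 was above 0 in 8 of the 9 such libraries and in 8 of the other 23. Without the 9 libraries the crz1 and rim101 changes passed (adjusted p = 0.00145 and 0.00020), and WT at 60 min could not be fitted. With quantile normalization the WT change did not pass (adjusted p = 0.0699). Leaving out 1 library lost the WT call in 4 of 6 fits (WT T0 replicate 1 or 3, WT T60 replicate 1 or 2, highest adjusted p = 0.244), the crz1 call without T60 replicate 1 (0.0898) and the rim101 call in all 4 fits (highest 0.397). PEX4, the ubiquitin-conjugating enzyme, did not pass. PAS_chr3_0588, described as peroxisome assembly protein 22, which anchors PEX4 to the membrane, rose in rim101 at 30 min from 64.1 and 67.1 RPKM to 199 and 176 RPKM (log2 change 1.50, adjusted p = 0.0405), a call lost without any of these 4 libraries (highest 0.183) and with median-ratio scaling (0.74, adjusted p = 0.0786). Both T30 libraries are among the 9 with a median above 40 RPKM, where its level was 53.0 to 206 RPKM. It was 22.7 to 121 RPKM in the remaining 23, and the part of that difference was not tested. This gene overlaps SCP1 on the other strand by 4 bases, and the libraries carry no strand.

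Among the genes of membrane biogenesis and peroxisome number, INP1 (PAS_chr4_0390), which anchors peroxisomes in the mother cell in Saccharomyces cerevisiae, stood in WT at 3.19, 2.37 and 4.60 RPKM at T0, 7.15, 3.46 and 11 RPKM at 15 min, 22.6, 10.6 and 12.7 RPKM at 30 min and 18.8, 19.4 and 9.78 RPKM at 60 min. All later WT values from 30 min on exceeded the T0 values. The log2 change in WT was 1.86 (adjusted p = 0.00292) at 30 min and 1.93 (adjusted p = 0.00271) at 60 min. In crz1 INP1 rose at all 3 times, by log2 1.71, 2.15 and 1.69, from a T0 mean of 3.10 ± 1.61 RPKM (n = 3). In rim101 it rose at 30 min, from 3.23 and 2.73 RPKM to 29.7 and 17.0 RPKM (log2 change 2.57, adjusted p = 0.00185). Its level was 11.5 to 29.7 RPKM in the 9 libraries with a median above 40 RPKM and 2.14 to 13.7 RPKM in the other 23. Without these 9 libraries its log2 change in WT at 30 min was 1.56 (adjusted p = 0.0128). Those in crz1 were 1.33, 1.88 and 1.55 at the 3 times (adjusted p = 0.0250, 0.00389 and 0.0154). WT at 60 min and rim101 at 30 min could not be fitted so, and the part of that difference there was not tested. With quantile normalization the WT changes were 0.66 (adjusted p = 0.0739) and 0.65 (adjusted p = 0.0700), and neither passed. The crz1 call at 15 min was lost without T15 replicate 1 (adjusted p = 0.0515) and the rim101 call without T30 replicate 1 (0.0507).

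PEX11 (PAS_chr2-1_0504), which drives peroxisome proliferation, fell and rose in different comparisons. In WT it went from 29.8, 36.4 and 20.1 RPKM at T0 to 14.8, 18.9 and 13.1 RPKM at 15 min (log2 change -0.82, adjusted p = 0.0418), with no overlap between the groups. In crz1 it went from 32.1, 19.7 and 22.5 RPKM at T0 to 50.4, 48.5 and 50.1 RPKM at 60 min (log2 change 1.01, adjusted p = 0.0136), again without overlap. Both calls missed the threshold with median-ratio scaling, with log2 changes of -0.97 (adjusted p = 0.0812) and 0.74 (adjusted p = 0.221). Leaving out 1 library lost the WT call without T0 replicate 1 or 2 or T15 replicate 1 or 3 (highest 0.158) and the crz1 call without T0 replicate 2 or 3 (highest 0.0705). PEX3 (PAS_chr3_1073), the membrane receptor for newly made peroxisomal membrane proteins, rose in rim101 at 30 min from 5.49 and 5.13 RPKM to 29.3 and 23.6 RPKM (log2 change 2.11, adjusted p = 0.0370), and PAS_chr1-1_0326, described as Peroxin-36, rose in crz1 at 30 min from 2.15, 0 and 0 RPKM to 11.5, 3.44 and 5.66 RPKM (adjusted p = 0.0439). Both rim101 T30 libraries are among the 9 with a median above 40 RPKM, and PEX3 was at 12.1 to 29.3 RPKM there. In the remaining 23 it was at 1.68 to 18.3 RPKM, and the part of that difference was not tested. The PEX3 change did not pass with median-ratio scaling (1.40, adjusted p = 0.0665) or quantile normalization (0.87, adjusted p = 0.108). Its call was lost without any of its 4 libraries (highest 0.180) and the PAS_chr1-1_0326 call without T0 replicate 2 or 3 or T30 replicate 1 or 3 (highest 0.184). PEX19, the chaperone for those membrane proteins, and PEX30, a reticulon-like protein that limits peroxisome number in yeasts, did not pass, nor did PEX11C, PEX31 or PAS_chr3_0189, described as a peripheral membrane peroxin (12.5, 19.8 and 17.7 RPKM in WT at T0). Of the 16 members with a PEX name, 12 were tested, 5 were called in at least 1 comparison with T0 (41.7% of the 12, where 55.8% of all genes were) and 11 were listed at 0 in some library.

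Of the membrane proteins, PMP4 (PAS_chr1-1_0352) rose in WT from 10.1, 19.8 and 13.7 RPKM at T0 to 121, 111 and 36.7 RPKM at 60 min (log2 change 2.41, adjusted p = 0.00657), and the groups did not overlap. The higher values, 121 and 111 RPKM, came from the WT T60 libraries with a median above 40 RPKM, and the part of that difference was not tested. PAS_chr4_0347, described as a peroxisomal adenine nucleotide transporter, a carrier known in Saccharomyces cerevisiae to bring ATP into the matrix, rose in WT at 30 and 60 min (log2 change 0.93 and 0.96, adjusted p = 0.0439 and 0.0371), in crz1 at 15 and 30 min (0.96 and 1.14, adjusted p = 0.0459 and 0.0178) and in rim101 at 30 min (1.21, adjusted p = 0.0400). Its level was 23.2 to 39.4 RPKM in the 9 libraries with a median above 40 RPKM. The other 23 held 8.23 to 20.3 RPKM, without overlap. With median-ratio scaling its changes in WT at 30 and 60 min and in rim101 at 30 min did not pass (log2 0.44, 0.41 and 0.47). Without the 9 libraries the change in WT at 30 min was 0.57 (adjusted p = 0.0378). Those in crz1 at 15 and 30 min were 0.63 and 0.88 (adjusted p = 0.0221 and 0.00370). WT at 60 min and rim101 at 30 min could not be fitted so. Leaving out 1 library lost the call in 4 of 6 fits in WT at 30 min (any T0 replicate or T30 replicate 1, highest adjusted p = 0.309), 5 of 6 at 60 min (all but T60 replicate 3, highest 0.166), 5 of 6 in crz1 at 15 min (all but T15 replicate 3, highest 0.280), 2 of 6 at 30 min (T0 replicate 2 or T30 replicate 1, highest 0.121) and all 4 in rim101 (highest 0.201). PMP47 (PAS_chr3_0099), which the deposited table describes as a mitochondrial NAD+ transporter, fell in crz1 at 15 min from 25, 22 and 23 RPKM to 16.1, 13.3 and 12.8 RPKM (log2 change -0.70, adjusted p = 0.0218), a call lost without T0 replicate 1 or 3 or T15 replicate 2 or 3 (highest 0.0763).

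Of the 4 fatty acid and CoA genes, 3 rose in WT at 15 min, beside 18.6% of all genes called, and the same number at 30 min, beside 28.2%. PAS_chr1-3_0016 (chromosome 1, 29840 to 30607) is annotated as the multifunctional beta-oxidation enzyme, the same description that FOX2 carries, but spans 768 bases where FOX2 spans 2709. In WT it stood at 1.93, 0 and 0 RPKM at T0, 61.9, 37.1 and 30.5 RPKM at 15 min, 9.58, 29.1 and 22.1 RPKM at 30 min and 0, 0 and 9.74 RPKM at 60 min. All T15 and T30 values exceeded all T0 values (adjusted p = 2.36e-05 and 0.000389), and the level fell again from 30 to 60 min (log2 change -3.14, adjusted p = 0.0109), the only member called in that comparison, in which 3.03% of all genes were called. In crz1, from 0 in all 3 T0 libraries, it reached 38.7, 38.3 and 38.6 RPKM at 15 min (adjusted p = 6.98e-06) and 10.3, 18.6 and 12.8 RPKM at 30 min (adjusted p = 0.000294). In rim101, from 0 in both T0 libraries, it reached 73.9 and 43.4 RPKM at 15 min (adjusted p = 6.82e-05), 29.4 and 28.1 RPKM at 30 min (adjusted p = 0.000391) and 10.9 and 13 RPKM at 60 min (adjusted p = 0.0118). No T15 or T30 library of any strain overlapped its T0 libraries, and these 6 calls held without any single library; the rim101 call at 60 min was lost without any of its 4 libraries (highest adjusted p = 0.110) and the fall from 30 to 60 min without T30 replicate 2 or 3 or T60 replicate 1 or 2 (highest 0.129). FOX2, the full-length multifunctional enzyme, had a WT mean of 8.37 ± 4.08 RPKM at T0 and 7.34 ± 3.34 RPKM at 15 min (n = 3 each) and did not pass in any strain. No member passed from 15 to 30 min in WT, where 0.686% of all genes did and 5 members had an unadjusted p under 0.05.

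PCD1 (PAS_chr3_0578), a nudix hydrolase that cleaves coenzyme A and its derivatives, rose at all 3 times in WT. There it stood at 25.3, 21.1 and 20.9 RPKM at T0, 60.2, 55 and 45.2 RPKM at 15 min, 59.1, 72.2 and 70.0 RPKM at 30 min and 179, 52.5 and 119 RPKM at 60 min. All later WT values lay above all T0 values. The log2 changes in WT were 1.21, 1.54 and 2.17 (adjusted p = 0.0203, 0.00316 and 0.000202). In crz1 PCD1 stood at 14.5, 13.5 and 15.3 RPKM at T0 and at 216, 134 and 133 RPKM at 60 min, a log2 change of 3.35 (SE 0.36, adjusted p = 6.1e-07). In rim101 it went from 23 and 35.7 RPKM to 160 and 104 RPKM at 60 min (log2 change 2.13, adjusted p = 0.00552), without overlap. With median-ratio scaling the WT changes at 15 and 30 min (1.07 and 1.03) and the rim101 change (2.00, adjusted p = 0.0521) did not pass. With quantile normalization none of the 3 WT changes passed (adjusted p = 0.257, 0.312 and 0.0674). The WT call at 15 min was lost without T0 replicate 3 or T15 replicate 1 or 2 (highest 0.0801) and the rim101 call without T0 replicate 1 or T60 replicate 1 (highest 0.135). CAT2 (PAS_chr3_0069), carnitine acetyltransferase, which moves acetyl groups out of peroxisomes and into mitochondria, rose in WT at 15 and 30 min (log2 1.11 and 1.19, from 13.3 ± 4.16 to 29.7 ± 7.77 and 31.2 ± 5.57 RPKM, n = 3 each), in crz1 at 30 min (1.18) and in rim101 at 15 and 30 min (1.06 and 1.04). The rim101 calls of CAT2 were lost in 3 of 4 fits at 15 min (T0 replicate 1 or 2 or T15 replicate 2, highest adjusted p = 0.435) and in all 4 at 30 min (highest 0.147), and with median-ratio scaling the WT change at 30 min was 0.70 (adjusted p = 0.0808). With quantile normalization none of its 5 changes passed, with 0.74 (adjusted p = 0.120) and 0.39 (adjusted p = 0.473) in WT at 15 and 30 min.

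**Figure D4:**
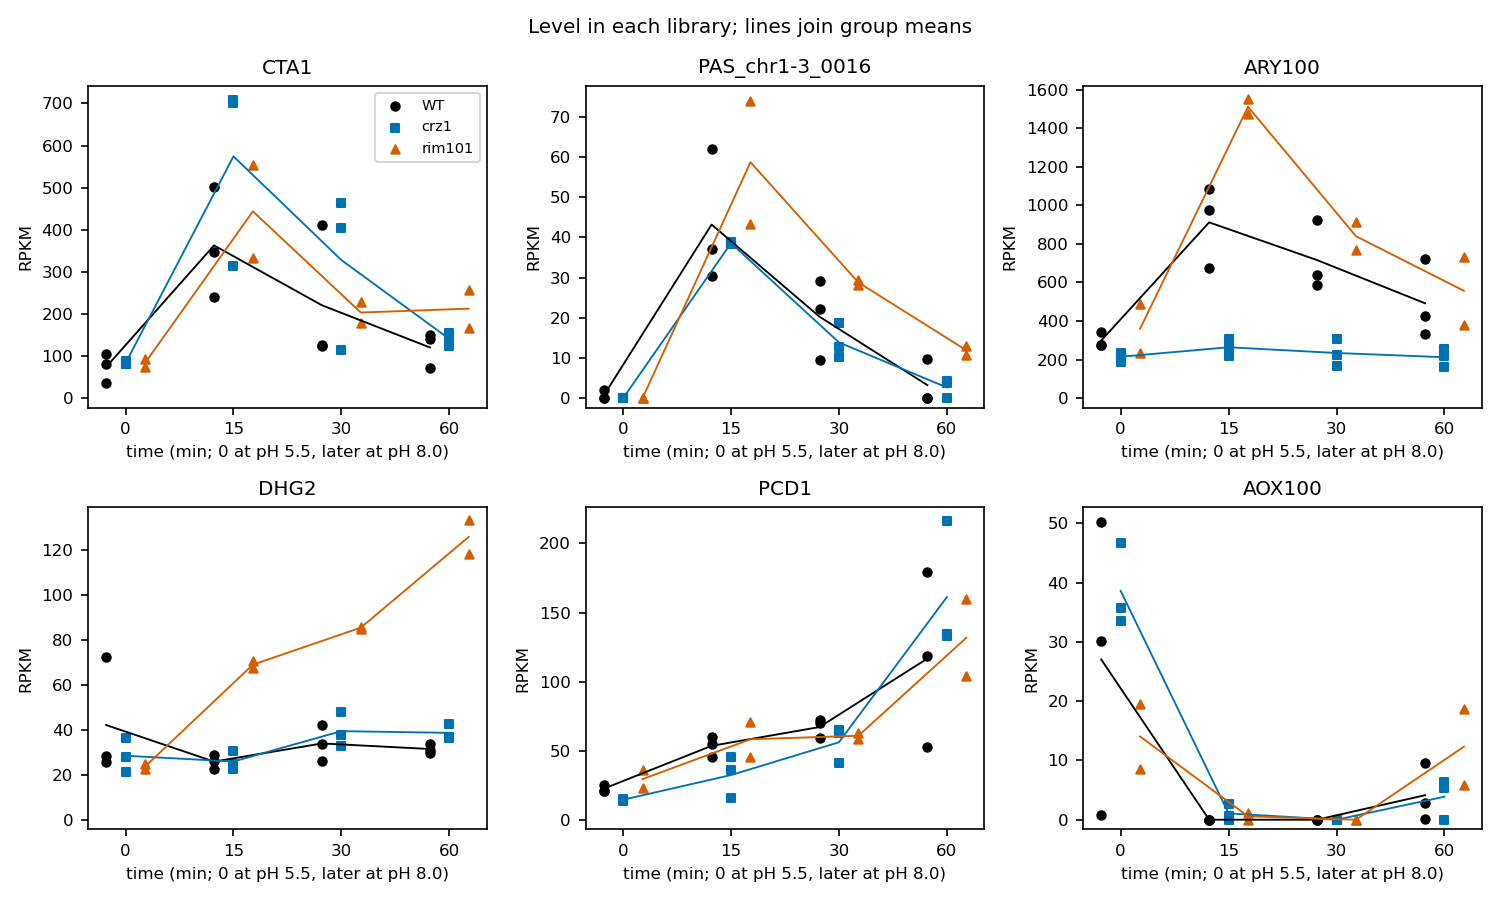
RPKM in each library of CTA1, PAS_chr1-3_0016, ARY100, DHG2, PCD1 and AOX100 at 0, 15, 30 and 60 min in WT, crz1 and rim101. Points are libraries and lines join group means (n = 3, or n = 2 for rim101). CTA1 and PAS_chr1-3_0016 peak at 15 min in every strain, ARY100 stays between 161 and 309 RPKM in crz1, and DHG2 in rim101 stands at 133 and 118 RPKM at 60 min.

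All 3 members called between strains at the same time (ARY100, DHG2 and SOU1-1) were among the 4 described as peroxisomal dienoyl-CoA reductases, auxiliary enzymes for unsaturated fatty acids. The description rests on annotation, and SOU1-1 carries the name of a Saccharomyces cerevisiae gene of sorbitol use. ARY100 (PAS_chr2-2_0019, chromosome 2, 2357846 to 2358685) stood in WT at 344, 276 and 276 RPKM at T0, at 975, 1084 and 676 RPKM at 15 min, at 637, 925 and 586 RPKM at 30 min and at 331, 722 and 424 RPKM at 60 min. In crz1 it stood at 236, 222 and 186 RPKM at T0, 308, 265 and 219 RPKM at 15 min, 309, 226 and 168 RPKM at 30 min and 221, 256 and 161 RPKM at 60 min. In rim101 it stood at 233 and 488 RPKM at T0, 1549 and 1472 RPKM at 15 min, 769 and 911 RPKM at 30 min and 382 and 732 RPKM at 60 min. Every WT and rim101 library of 15 and 30 min was above its own T0 and above every crz1 library. The log2 change from T0 was 1.58 (adjusted p = 0.00065) and 1.24 (adjusted p = 0.00447) at 15 and 30 min in WT and 2.16 (adjusted p = 0.000513) and 1.31 (adjusted p = 0.0177) in rim101. In crz1 it was 0.29, 0.09 and -0.03 at the 3 times, with no call; the 95% confidence interval at 15 min ran from -0.34 to 0.92.

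Between strains at the same time, ARY100 was lower in crz1 than in WT by a log2 difference of -1.77 (SE 0.31, adjusted p = 0.00379) at 15 min and -1.62 (SE 0.31, adjusted p = 0.00933) at 30 min. It was the only member called at either time, beside 0.568% and 0.426% of all genes. At 60 min the difference was -1.16 (adjusted p = 0.274) and at T0 -0.48 (adjusted p = 0.765), when 0.26% and 0.071% of genes and no member were called; 2 and 1 members had an unadjusted p under 0.05 there. The difference between the crz1 and WT responses was -1.29 (95% confidence interval -2.19 to -0.40) at 15 min and -1.15 (-2.04 to -0.25) at 30 min, and neither passed over all genes (adjusted p = 1 at both). No member passed that test of crz1 at any time, and 1 member had an unadjusted p under 0.05 at each; 0%, 0.0237% and 0% of all genes passed. The call at 30 min between the strains was lost without WT T30 replicate 2 or crz1 T30 replicate 3 (highest adjusted p = 0.130) and without the 9 libraries of higher median (0.0525). The rim101 change at 30 min was lost without rim101 T0 replicate 1 or either T30 replicate (highest 0.212). With median-ratio scaling the changes at 30 min were 0.71 in WT and 0.54 in rim101, neither of which passed. In fits of only the compared groups the crz1 difference from WT did not pass at 15 or 30 min (adjusted p = 0.159 and 0.332). The rim101 changes from T0 at 15 and 30 min did not pass in such fits either (0.264 and 0.0660), whereas those of WT did (0.0172 and 0.0329).

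DHG2 (PAS_chr4_0338, chromosome 4, 691450 to 692223) was the only member whose response differed between a mutant and WT beyond the threshold. In WT it stood at 28.2, 72.3 and 25.9 RPKM at T0, 28.9, 26.2 and 22.4 RPKM at 15 min, 33.5, 42 and 26.3 RPKM at 30 min and 29.7, 33.6 and 31.0 RPKM at 60 min. In crz1 it stood at 36.3, 27.7 and 21.4 RPKM at T0, 30.4, 24.9 and 22.4 RPKM at 15 min, 47.8, 32.7 and 37.7 RPKM at 30 min and 42.6, 36.8 and 36.5 RPKM at 60 min. In rim101 it stood at 24.8 and 22.4 RPKM at T0, 70.5 and 67.4 RPKM at 15 min, 85.9 and 84.9 RPKM at 30 min and 133 and 118 RPKM at 60 min. The rim101 libraries after the shift lay above all libraries of the other strains at the same times, and WT T0 replicate 2, at 72.3 RPKM, stood above the rest of the WT libraries. The log2 change from T0 in rim101 was 1.51 (adjusted p = 0.00592), 1.81 (adjusted p = 0.000874) and 2.36 (adjusted p = 0.000156), and neither WT (-0.53, -0.17 and -0.25) nor crz1 (-0.11, 0.47 and 0.46) gave a call.

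Against WT at the same time, DHG2 in rim101 differed by a log2 value of -0.65 at T0 (adjusted p = 1), 1.39 at 15 min (adjusted p = 0.0179), 1.33 at 30 min (adjusted p = 0.0210) and 1.97 at 60 min (adjusted p = 0.000316), beside 0.118%, 1.06%, 1.51% and 1.66% of all genes called. The response of rim101 exceeded that of WT by 2.04 (adjusted p = 0.0305), 1.98 (adjusted p = 0.0259) and 2.62 (adjusted p = 0.00259), where 0.45%, 0.781% and 0.568% of all genes passed. Without WT T0 replicate 2 the differences in response were 1.58, 1.52 and 2.15 (adjusted p = 0.0207, 0.0190 and 0.000898). The difference at 60 min held without any single library (highest adjusted p = 0.0272), and those at 15 and 30 min were lost in 6 and 5 of 10 such fits (either rim101 T0 replicate, either rim101 replicate of that time, WT T15 replicate 2 or 3 and WT T30 replicate 3; highest 0.172 and 0.146). Against WT at 15 and 30 min the call was lost without either rim101 replicate, WT T15 replicate 2 or 3, or WT T30 replicate 1 or 3 (highest 0.203 and 0.228). With median-ratio scaling the differences in response at 15 and 30 min were 1.85 and 1.74 (adjusted p = 0.0645 and 0.0774) and that at 60 min was 3.06 (adjusted p = 0.000248). In a fit of only the compared groups no difference in response passed (adjusted p = 0.994, 0.791 and 0.442).

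SOU1-1 (PAS_chr4_0754), the most abundant member in WT at T0, rose in WT at 30 and 60 min (log2 0.35 and 0.44, from 373 ± 46.9 to 475 ± 35.3 and 503 ± 23.3 RPKM, n = 3 each), in crz1 at 30 and 60 min (0.48 and 0.64) and in rim101 at 30 and 60 min (0.71 and 0.89). With median-ratio scaling none of these 6 changes passed. The WT changes became -0.17 and -0.15, those of crz1 0.09 and 0.37, and those of rim101 -0.057 and 0.76. It was higher in rim101 than in WT at 15 min (530 and 489 RPKM against 370, 369 and 293 RPKM, log2 difference 0.57, adjusted p = 0.0267). Leaving out WT T15 replicate 3 or either rim101 library ended this call (highest adjusted p = 0.177), as did median-ratio scaling (0.23, adjusted p = 0.804). The WT calls of SOU1-1 were lost without T0 replicate 3 or T30 replicate 1 or 2 at 30 min (highest 0.175) and without T0 replicate 3 at 60 min (0.0683). PAS_chr3_0086, the fourth gene of this description, rose in WT at 30 and 60 min (0.95 and 0.97, from 84.4 ± 6.91 to 167 ± 43 and 170 ± 38.4 RPKM, n = 3 each), in crz1 at 15 and 30 min (0.72 and 0.99) and in rim101 at 30 min (1.34). Its calls in WT at 30 min and in crz1 at 15 min were lost in 1 fit (T30 replicate 1, adjusted p = 0.0642) and in 5 fits (all but T15 replicate 3, highest 0.272) that left out 1 library. PAS_chr3_0086 stood at 165 to 238 RPKM in the 9 libraries with a median above 40 RPKM. In the other 23 it stood at 75.6 to 175 RPKM. The part of that difference in its changes in WT at 60 min and in rim101 at 30 min was not tested. With median-ratio scaling its changes still passed but were smaller, at 0.42 and 0.39 in WT, 0.51 and 0.61 in crz1 and 0.57 in rim101. Without the 9 libraries the crz1 change at 15 min did not pass (0.47, adjusted p = 0.150). The changes at 30 min passed there in WT (0.75, adjusted p = 0.0261) and in crz1 (0.84, adjusted p = 0.0137).

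The name rule also brought in genes whose descriptions lie outside the peroxisome. PMP3-2 (PAS_chr1-4_0369), a small proteolipid of the plasma membrane, rose at all 3 times in all 3 strains and was the only member to do so. Its WT libraries held 155, 125 and 207 RPKM at T0, 476, 509 and 385 RPKM at 15 min, 424, 409 and 568 RPKM at 30 min and 302, 263 and 351 RPKM at 60 min, with no overlap with T0. Its log2 change was 1.51, 1.53 and 0.93 at the 3 times in WT; the crz1 values were 1.47, 1.95 and 0.98 and the rim101 values 2.33, 1.94 and 1.47, with adjusted p from 1.07e-07 to 0.00154. With median-ratio scaling 5 of these 9 did not pass, among them WT at 60 min (log2 0.34, adjusted p = 0.504). AOX100 (PAS_chr3_0408) is not an alcohol oxidase but the alternative oxidase of the mitochondrial respiratory chain, and it went the other way. In WT it stood at 50.2, 0.831 and 30.1 RPKM at T0 and was listed at 0 in all 6 libraries of 15 and 30 min (adjusted p = 0.00477 and 0.00394), with 0.144, 9.50 and 2.75 RPKM at 60 min. In crz1 it went from 46.6, 33.5 and 35.7 RPKM to 0, 0.571 and 2.62 RPKM at 15 min (adjusted p = 0.000991), 0 in all 3 libraries at 30 min (adjusted p = 0.000212) and 0, 5.27 and 6.38 RPKM at 60 min (adjusted p = 0.0119). In rim101 it went from 8.54 and 19.5 RPKM to 0 in both libraries at 30 min (adjusted p = 0.0220) and stood at 5.94 and 18.7 RPKM at 60 min. All libraries of 15 and 30 min were below the T0 libraries of their strain; the rim101 call was lost without any of its 4 libraries (highest adjusted p = 0.129) and the crz1 call at 60 min without T60 replicate 1 (0.0955). DAS2_Sc, a uridine kinase, did not pass.

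Over the 12 group means of log2(RPKM + 1), PAS_chr1-3_0016 followed CTA1 with a Pearson correlation of 0.93, PMP3-2 with 0.91 and CAT2 with 0.83. For INP1 the closest member was PAS_chr3_0086 (0.97), for DHG2 SOU1-1 (0.85), for ARY100 PAS_chr3_0588 (0.89) and for PCD1 PEX2 (0.86). These are descriptions over groups that share libraries and strains.

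The authors' deposited table of comparisons sets every group against WT T0. It gives fewer calls of members in WT, though not for PEX5, PEX20 or PAS_chr3_0874. At an adjusted p under 0.05 it lists 6 members up and 2 down in WT at 15 min (19% of the 42, beside 8.03% of all its genes), 1 up and 1 down at 30 min (4.76%, beside 7.18%), and 1 up at 60 min (2.38%, beside 4.74%). For CTA1 at 15 min the authors' deposited table has a log2 fold change of 2.09 (adjusted p = 7.09e-05), for ARY100 1.51 (0.00202) and for PAS_chr1-3_0016 5.86 (0.000571). PEX5 has an adjusted p of 4.67e-06 there at 15 min in WT and is the member up at 30 min (0.0374). In the authors' comparisons PEX5 also passes in crz1 at 15 and 30 min (0.0447 and 0.000376) and in rim101 at 15 and 60 min (0.00773 and 0.000303). It does not pass there in WT or crz1 at 60 min or in rim101 at 30 min. PEX20 is down there in WT at 15 min (adjusted p = 0.0443). In crz1 at 15 and 30 min, where it was called in the present fit, PEX20 does not pass there (0.0694 and 0.0600). PAS_chr3_0874, which did not pass the filter used here, is up there in WT at 15 min (0.0156). For rim101 at 30 min the authors' deposited table lists 2 members up and 5 down (16.7%, beside 31.6% of all its genes). Those down in the authors' deposited table include DAS1, AOX2, PEX11C and PEX31. Both rim101 T30 libraries listed these 4 at 0. DHG2 does not pass in the authors' deposited table at any time, with a log2 fold change of 1.35 (adjusted p = 0.205) in rim101 at 60 min against WT T0.

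Other genes of the same pathways moved in part, and their lists were drawn up with earlier results of these data known. The counts stand beside 18.6%, 28.2% and 31.5% of all genes called in WT at 15, 30 and 60 min. Of 13 enzymes outside the members that were listed with the methanol pathway, 1 rose and 2, 4 and 2 fell in WT at the 3 times. The 13 include the glycerol kinase GUT1 and the glycerol-3-phosphate dehydrogenase GUT2. FBP1, fructose-bisphosphatase, which regenerates sugar phosphates, fell at 15 and 30 min by log2 changes of -3.28 and -2.76, TPI1, triosephosphate isomerase, fell at 30 and 60 min (-1.08 and -1.10), and GSH1, the first enzyme of glutathione synthesis, rose at all 3 times (0.79, 1.11 and 0.75). FLD, the formaldehyde dehydrogenase PAS_chr3_1028, was chosen after its values were seen: it carries no digit and so is no member, and its WT means of 597, 773, 728 and 537 RPKM gave no call. Of 10 tested fatty acid and peroxisomal metabolism genes outside the members, none rose and 3 fell at 15 min, among them PNC1, a nicotinamidase (-1.66), and FAT1, a fatty acid transporter and acyl-CoA synthetase (-1.17). At 60 min 2 of them rose, LYS1 (1.10) and FAA1 (0.82). Of the 5 glyoxylate cycle genes, ICL1, isocitrate lyase, and CIT1, citrate synthase, fell at 60 min.

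Of 13 tested genes matched by name to regulators, 3, 4 and 3 rose in WT at the 3 times and 1, 0 and 1 fell. Of all genes, 18.6%, 28.2% and 31.5% were called at these times, which also applies to the lists below. A matched name need not be the regulator, since MXR1-1 in this list is described as a peptide-methionine sulfoxide reductase. MIT1 is a regulator of methanol genes, although its deposited description speaks only of a cAMP-independent regulator. Its WT level went from 3.17, 0 and 0 RPKM at T0 to 286, 248 and 270 RPKM at 15 min in WT and was listed at 0 in all 8 rim101 libraries. AOX1, which Mit1 is known to activate on methanol, was listed at 0 in all 12 WT libraries. HAP3-2, a subunit of the CCAAT-binding complex, and TRM1, described as a tRNA methyltransferase, also rose at 15 min (log2 3.26 and 2.77), and NRG1, a repressor, fell (-2.60). Of 7 division and pexophagy genes, none passed at 15 min and 3 rose at 30 and at 60 min, among them ATG30, the receptor that marks peroxisomes for autophagy (log2 1.82 and 2.05), and MYO2, the motor that carries organelles (1.20 and 1.32). A list of redox genes held enzymes and the transcription factors YAP1 and SKN7. Of its 14 tested genes, 2, 6 and 6 rose and 0, 1 and 1 fell. AHP1, a peroxiredoxin, rose at all 3 times (0.86, 1.81 and 1.37). CCP1-1, described as a peroxidase, fell at 30 and 60 min (-2.81 and -1.76).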

How the data were processed

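Poly(A) RNA was sequenced from non-directional libraries, per the labels' protocols. The deposited RPKM values were made by the authors; Bowtie2 and edgeR are named in the submitters' processing notes, with no version, and the genome build and multi-mapping rules are not given in the sources used here. The authors' deposited table of comparisons gives log2 fold changes and p-values (raw and FDR) against WT T0. All 5040 identifiers and their coordinates matched the RefSeq table of assembly ASM2700v1.

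From the RPKM values, log2(RPKM + 1) was tested with limma 3.58.1 (trend) in R 4.3.3, two-sided, over 4226 genes with a mean of at least 1 RPKM, with 12 group means and 20 residual degrees of freedom. Scripts other than the fits ran in Python 3.11.15. The limma fit alone was tested on simulated data, drawn around the WT T0 means with separate spread for each gene. Those data held no libraries of higher median, so the test does not cover them. Low values gave depths for 30 libraries, with 94.7 to 99.4% of them within 0.1 of a whole read; 2 libraries had mixed steps. Values near 0 rest on few reads.

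Named were all members beginning AOX, DAS, CTA or PMP, all PEX members by role, other members that passed with at least a 2-fold change, and at most 4 genes a list; members and lists were chosen with earlier results of these data known. Alternatives were the pseudocount, the filter, the scaling, a replicate block, the groups fitted and the libraries left out. No set test was run. The values of 1 member are not reported here.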

Additional observations from a re-analysis of the deposited data

Results flagged for a closer look

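DHG2, described as a peroxisomal dienoyl-CoA reductase, was marked because its response after the shift differed between rim101 and WT in the test of the difference itself. The change since T0 in rim101 exceeded that in WT by 2.04 on the log2 scale at 15 min (adjusted p = 0.0305), by 1.98 at 30 min (adjusted p = 0.0259) and by 2.62 at 60 min (adjusted p = 0.00259). Both rim101 libraries were above all 3 WT libraries at each of these times, and the rim101 groups had 2 libraries each.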

How the results depend on the processing

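Of the 90 calls of members, 19 held in every fit tried, 49 in every fit that left out 1 library and 22 under all other settings; of 1263 values of single genes under the alternatives, 982 stayed on the same side of the threshold with the same sign, 278 missed it, and 3 changed sign (SOU1-1 with median-ratio scaling, -0.17 and -0.15 in WT at 30 and 60 min and -0.057 in rim101 at 30 min). Members called changed as follows; the causes were not tested. Median-ratio scaling gave 4 in WT and 6 in rim101 at 30 min against T0, 2, 2 and 1 for crz1 against WT at 15, 30 and 60 min, and 0 for rim101 against WT and for the difference in response of rim101 at 15 and at 30 min. Quantile normalization gave 7 and 5 in WT at 30 and 60 min, 0 from 30 to 60 min, 2, 2 and 1 for crz1 against WT, 0, 0 and 2 for rim101 against WT at 15, 30 and 60 min, and 0 for the rim101 response at 15 and 30 min. With no filter there was 1 from 15 to 30 min in WT and 3 for rim101 against WT at 60 min. Over all strains 33 of 48 same-numbered pairs of libraries correlated above 0.1 (range -0.53 to 0.88); in crz1 all 3 pairs did between T0 and 15 min (0.26 to 0.56) and among the later times, but not between T0 and 30 or 60 min, and in WT no pair of times had all 3. In rim101, with 2 libraries a group, both replicates must give the same correlation, so each of its values was counted 2 times. Replicate 1 of crz1 at every later time is among the 9 libraries of higher median. The labels do not say what a number stands for. The replicate block ended the 2 calls of PEX20 and no other call of a member, and gave 1 from 15 to 30 min and 2 from 30 to 60 min in WT, and 2 and 1 for crz1 against WT at 30 and 60 min. Fits of only the compared groups gave 5, 4 and 0 in WT, 4 in crz1 at 15 min, 0 and 3 in rim101 at 15 and 60 min, and 0 for WT from 30 to 60 min, for crz1 and rim101 against WT at 15 and 30 min, and for the rim101 response at all 3 times; these fits have fewer libraries. Without the 9 libraries of higher median there was 1 from 15 to 30 min in WT and 0 for crz1 against WT at 30 min; that alternative could not be fitted for WT at 60 min or rim101 at 15 and 30 min. Leaving out each library gave 6 to 8, 9 to 12 and 5 to 11 in WT against T0, 5 to 8, 9 to 12 and 6 to 8 in crz1, and 4 to 5, 5 to 7 and 3 to 4 in rim101. It gave 0 to 1 from 15 to 30 and from 30 to 60 min in WT, 1 to 1, 0 to 1 and 0 to 0 for crz1 against WT at 15, 30 and 60 min, 0 to 2, 0 to 1 and 1 to 4 for rim101 against WT, and 0 to 1, 0 to 1 and 1 to 2 for the rim101 response. The pseudocounts 0.1 and 5 and a filter of 10 RPKM moved no count by over 1.5 times.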
